A study of Mus musculus with 8 samples.

Results

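The hair follicle stem cell genes were 10 genes chosen by symbol for their place in the bulge, isthmus or outer root sheath of the follicle: Lgr5, Lgr6, Sox9, Cd34, Nfatc1, Krt15, Lrig1, Tbx1, Nfib and Gas1. All 10 were found by exact symbol among the 18540 genes of the count table, and all 10 were among the 15147 genes with enough reads to be tested. RNA had been sequenced from the wound skin of 8 mouse samples. The 4 control samples came from wounds injected with PBS, and the 4 Z1C2Z samples from wounds treated for 15 days with Z1C2Z, the composite of zinc peroxide and cerium oxide in a zeolitic imidazolate framework with the higher share of cerium oxide. The samples are named by the numbers in their titles (1, 2, 3 and 5 in the control group and 1, 2, 4 and 5 in the Z1C2Z group). The study worked with db/db mice, which lack the leptin receptor and are diabetic, and with C57BL mice, and made a pair of wounds on the back of each. The strain and age of the sequenced mice, and which samples shared a mouse, were not given in the sources used here, so the p-values measure the spread between these samples. The question behind the comparison was how gene expression in the wound differed after treatment.

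The hair follicle keeps its stem cells in the bulge, a niche in the outer root sheath below the sebaceous gland, and further progenitor pools sit above it in the isthmus and junctional zone. At the start of a growth phase the cells of the hair germ and bulge divide and feed the outer root sheath and the matrix, whose progeny form the hair shaft, and after wounding follicle cells can also move into the new epidermis. R-spondins, acting through LGR receptors, raise Wnt signalling in these cells, whereas NFATc1 and bone morphogenetic proteins hold bulge cells at rest.

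Of the 10 genes, 4 rose in Z1C2Z samples (Tbx1, Sox9, Lgr5 and Nfib), 2 fell (Cd34 and Nfatc1) and 4 did not pass the test (Krt15, Lrig1, Lgr6 and Gas1). A gene passed at an adjusted p under 0.05 in the quasi-likelihood test of edgeR, adjusted over all genes tested by the Benjamini-Hochberg method. Over all genes 648 (4.28%) rose and 583 (3.85%) fell. The same 6 genes were those whose groups did not overlap, 4 with every Z1C2Z sample above every control sample and 2 with every Z1C2Z sample below, against 8.45% and 8.82% of all genes tested. The log2 fold change was positive for 7 of the 10 genes, with a median of 0.38 beside 0.0086 over all genes tested. The calls depended on single libraries: none of the 6 passed when Z1C2Z-4, Z1C2Z-2, Z1C2Z-1, control-5 or control-2 was left out (edgeR adjusted p between 0.0615 and 0.146), and in the first 4 of these fits no gene of the table passed, with an unadjusted edgeR p under 0.05 for 3100 to 4208 genes. Without control-3, 3 of the 6 passed (Sox9, Lgr5 and Nfib), and without control-1 or without Z1C2Z-5, 5 of the 6 passed each. The direction of all 6 was kept in each of these 8 fits.

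**Figure D1:**
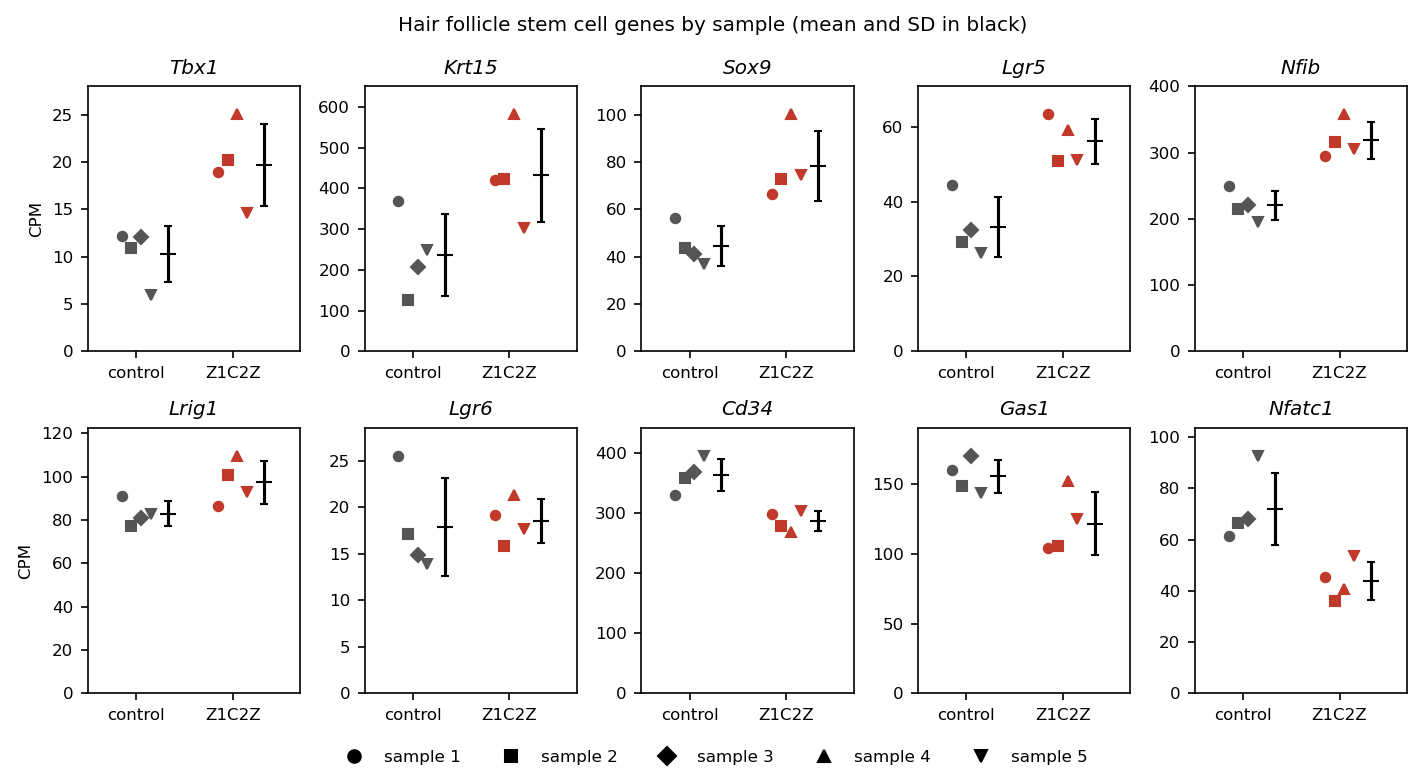
Level of each of the 10 hair follicle stem cell genes in CPM (counts scaled to equal library size) in the 4 control samples (grey) and the 4 Z1C2Z samples (red), with the marker shape giving the sample number and the black bars the mean and SD. The groups are separate for Tbx1, Sox9, Lgr5 and Nfib, which are higher in Z1C2Z, and for Cd34 and Nfatc1, which are lower, and they overlap for Krt15, Lrig1, Lgr6 and Gas1.

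The promoter sequences on record are shown for members on both sides of the comparison. RefSeq windows of the 250 bases upstream of the start site (build GRCm38.p6) were matched for 5 of the 10 genes: Cd34, Gas1, Lgr6, Lrig1 and Tbx1, the last with 2 start sites. Member windows on a single chromosome had been left out before matching, so a gene not matched here may still have a window on record. They were searched on both strands for the core letters of 4 factor families that the results turn on: CTTTGA for TCF/LEF, AACAAT for SOX, TTGGCA for NFI and TGGAAA for NFAT. Over 32851 windows of the mouse table these were present in 13.8%, 9.42%, 12.3% and 18.6%. The windows of Tbx1, which rose, of Cd34, which fell, and of Gas1, which did not pass the test, held none of the 4. The Gas1 sequence is not printed. Lgr6 held the SOX letters on its own strand at bases 63 to 58 upstream of the start, and Lrig1 held them on the opposite strand at bases 22 to 17. The sequences follow 5′ to 3′ on the strand of the gene, with the SOX letters in capitals. They are Tbx1 at chr16:18590672-18590921 and chr16:18588900-18589149 (minus strand), Cd34 at chr1:194938571-194938820 (plus strand), Lgr6 at chr1:135105277-135105526 (minus strand) and Lrig1 at chr6:94700146-94700395 (minus strand).
Tbx1, upstream start: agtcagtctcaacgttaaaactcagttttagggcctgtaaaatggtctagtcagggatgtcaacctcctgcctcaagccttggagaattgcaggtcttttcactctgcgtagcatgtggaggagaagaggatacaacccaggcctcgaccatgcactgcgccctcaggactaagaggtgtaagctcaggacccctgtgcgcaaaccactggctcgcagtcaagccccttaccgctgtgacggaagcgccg
Tbx1, downstream start: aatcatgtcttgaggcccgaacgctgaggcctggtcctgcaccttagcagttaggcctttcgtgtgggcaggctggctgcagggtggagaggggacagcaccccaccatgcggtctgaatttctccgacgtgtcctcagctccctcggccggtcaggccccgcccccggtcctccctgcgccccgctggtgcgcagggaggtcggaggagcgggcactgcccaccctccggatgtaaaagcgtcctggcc
Cd34: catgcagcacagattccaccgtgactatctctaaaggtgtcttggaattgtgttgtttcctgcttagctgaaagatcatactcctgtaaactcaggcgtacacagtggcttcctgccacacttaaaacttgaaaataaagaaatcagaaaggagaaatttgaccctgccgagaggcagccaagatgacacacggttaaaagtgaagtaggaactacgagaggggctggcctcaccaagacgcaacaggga
Lgr6: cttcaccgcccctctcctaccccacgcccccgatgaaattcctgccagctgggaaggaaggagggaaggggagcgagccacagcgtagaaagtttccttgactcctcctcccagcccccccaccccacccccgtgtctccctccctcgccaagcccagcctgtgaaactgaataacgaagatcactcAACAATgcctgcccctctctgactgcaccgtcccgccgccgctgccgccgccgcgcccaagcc
Lrig1: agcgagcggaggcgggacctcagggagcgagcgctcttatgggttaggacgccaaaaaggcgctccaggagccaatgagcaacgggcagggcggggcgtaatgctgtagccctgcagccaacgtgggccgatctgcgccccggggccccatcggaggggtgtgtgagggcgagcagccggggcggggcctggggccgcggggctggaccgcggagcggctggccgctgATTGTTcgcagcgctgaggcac
The windows also differed in base composition. The GC content was 71.6% for Lrig1, 65.2% for Lgr6, 67.2% for the downstream and 54.4% for the upstream start of Tbx1, 58.8% for Gas1 and 46.4% for Cd34. The median over all windows was 52.4%.

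Among the transcription factors, Sox9, Tbx1 and Nfib were higher in Z1C2Z samples and Nfatc1 was lower. Sox9, Entrez identifier 20682, is required in the bulge and outer root sheath to maintain the stem cells. Its level was 56.2, 43.8, 41.2 and 36.8 CPM in control-1, -2, -3 and -5, and 66.4, 73.0, 100.1 and 74.3 CPM in Z1C2Z-1, -2, -4 and -5. The lowest Z1C2Z sample was above the highest control, and Z1C2Z-4 stood highest. The mean rose from 44.5 ± 8.33 to 78.5 ± 14.8 CPM (SD, n = 4 each), and the log2 fold change with its SE was 0.82 ± 0.16 (edgeR, adjusted p = 0.0303). Tbx1, Entrez identifier 21380, is a T-box factor that supports self-renewal of bulge cells. It was measured at 12.2, 10.9, 12.1 and 5.97 CPM in the control samples and at 18.9, 20.2, 25.0 and 14.6 CPM in the Z1C2Z samples, in the same order. Control-5 had less than the other control samples, and Z1C2Z-4 again the most. With means of 10.3 ± 2.94 and 19.7 ± 4.29 CPM the log2 fold change of Tbx1 was 0.94 ± 0.24 (edgeR adjusted p = 0.0483). This call was near the threshold: it was lost without control-1 (adjusted p = 0.0507) and without control-3 (adjusted p = 0.0571), with log2 fold changes of 1.02 and 1.03.

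Nfib, Entrez identifier 18028, is a nuclear factor I protein that in the bulge restrains the coupled differentiation of pigment cells. It had 249.5, 215, 221 and 196 CPM in the control samples and 295, 316, 358 and 306 CPM in the Z1C2Z samples. The groups of Nfib were separate, and relative to its mean its spread was the smallest of the 4 genes that rose, with a coefficient of variation of 10.1% in control and 8.60% in Z1C2Z samples. The log2 fold change was 0.53 ± 0.10 (edgeR adjusted p = 0.0303, means 220.3 ± 22.3 and 319 ± 27.4 CPM). None of the other 3 members of the family passed the test, with log2 fold changes of −0.039 for Nfia (adjusted p = 0.820), −0.19 for Nfic (adjusted p = 0.509) and 0.16 for Nfix (adjusted p = 0.434). The ratio of Nfib to Nfix, both known in bulge cells, was 0.10 ± 0.25 on the log2 scale in control and 0.47 ± 0.22 in Z1C2Z samples, a difference of 0.37 (exact two-sided permutation p = 0.114, also after adjustment over 3 ratios).

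Nfatc1, Entrez identifier 18018, is the calcineurin-dependent factor that keeps bulge cells quiescent, and it also acts in endothelial cells and leukocytes. The control samples had 61.2, 66.3, 68.0 and 92.4 CPM and the Z1C2Z samples 45.4, 36.0, 40.9 and 53.5 CPM. Every Z1C2Z sample was below every control, and the sample numbered 5 was the highest of its group in both. Nfatc1 fell from 72.0 ± 13.9 to 43.9 ± 7.44 CPM, and its log2 fold change was −0.71 ± 0.16 (edgeR, adjusted p = 0.0362). Without control-3 the log2 fold change was −0.74 and the adjusted p 0.0518. The calcineurin genes Ppp3ca and Ppp3r1 did not pass the test, with log2 fold changes of −0.18 (adjusted p = 0.287) and −0.10 (adjusted p = 0.541). Rcan1, a feedback inhibitor of calcineurin that NFAT factors induce, had a log2 fold change of −0.86 (adjusted p = 0.0706).

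Among the surface proteins of the stem and progenitor pools, Lgr5 rose whereas its paralog Lgr6 and the junctional zone marker Lrig1 did not pass the test. Lgr5, Entrez identifier 14160, is an R-spondin receptor of the lower bulge and hair germ. It was at 44.6, 29.2, 32.5 and 26.4 CPM in the control samples and at 63.3, 50.9, 59.0 and 51.2 CPM in the Z1C2Z samples. All Z1C2Z samples were higher than control-1, the highest control. The mean went from 33.1 ± 8.01 to 56.1 ± 6.07 CPM, and its log2 fold change was 0.76 ± 0.16 (edgeR, adjusted p = 0.0337). Lgr6, Entrez identifier 329252, is the R-spondin receptor of the isthmus and of scattered epidermal cells. Its values of 25.5, 17.1, 14.8 and 13.9 CPM in control and 19.1, 15.8, 21.4 and 17.7 CPM in Z1C2Z samples overlapped, with control-1 the highest of all 8. The log2 fold change of Lgr6 was 0.054 ± 0.19 (edgeR adjusted p = 0.879), and its direction turned with the scale: relative to the mean of 8 keratinocyte genes the difference was −0.033.

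The ratio of the paralogs separated the groups. Lgr5 exceeded Lgr6 by 0.90 ± 0.16 on the log2 scale of CPM in control and by 1.60 ± 0.12 in Z1C2Z samples, with no overlap. The difference was 0.69 (exact two-sided permutation p = 0.0286, the smallest that 4 samples against 4 allow, and 0.0429 after adjustment over 3 ratios). The 3 ratios were chosen after the values had been seen. Lrig1, Entrez identifier 16206, is a transmembrane protein that dampens signalling of the EGF receptor family and marks the junctional zone. It had 91.0, 77.1, 80.7 and 82.8 CPM in control and 86.4, 100.7, 109 and 92.8 CPM in Z1C2Z samples, and only Z1C2Z-1 lay within the control range. The log2 fold change of Lrig1 was 0.23 ± 0.10 (edgeR adjusted p = 0.162, means 82.9 ± 5.89 and 97.3 ± 9.91 CPM). Sox9 relative to Lrig1 was −0.91 ± 0.21 on the log2 scale in control and −0.32 ± 0.14 in Z1C2Z samples, without overlap (difference 0.59, exact two-sided permutation p = 0.0286, adjusted 0.0429).

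Of 14 genes of the LGR and R-spondin pathway other than Lgr5 and Lgr6, 6 rose, none fell and 8 did not pass, and their median log2 fold change was 0.61. Over all genes tested 4.28% rose and 3.85% fell. The list had been chosen with earlier results of these data known, so its count is no independent evidence of its direction. The summed level of the 14 genes was between 330.3 and 399.5 CPM in control and between 467 and 524 CPM in Z1C2Z samples. Among the ligands, Rspo2, which dermal papilla cells produce, rose from 0.857 ± 0.292 to 2.01 ± 0.408 CPM (log2 fold change 1.23, edgeR adjusted p = 0.0478), on 15 to 38 counts per control sample and 56 to 102 counts per Z1C2Z sample. The ubiquitin ligases Rnf43 and Znrf3, which remove Wnt receptors and are cleared by R-spondin with its LGR receptor, rose by log2 fold changes of 0.89 (adjusted p = 0.0348) and 0.52 (adjusted p = 0.0441). Downstream, the Wnt effector Lef1, an abundant factor of the hair matrix and precortex, rose from 11.3 ± 4.18 to 37.6 ± 11.1 CPM (adjusted p = 0.0299). Tcf7, a related factor, and Nkd2, a feedback inhibitor of Wnt signalling, rose by 0.73 (adjusted p = 0.0487) and 1.13 (adjusted p = 0.0303) on the log2 scale. The best-expressed receptors did not pass the test, with log2 fold changes of 0.061 for Lrp6 (adjusted p = 0.815), −0.0064 for Lrp5 (adjusted p = 0.985) and 0.32 for Lgr4 (adjusted p = 0.147). Axin2, the common Wnt target, had no overlap between groups and a log2 fold change of 0.54 (adjusted p = 0.0568). It was named after its value had been seen.

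**Figure D2:**
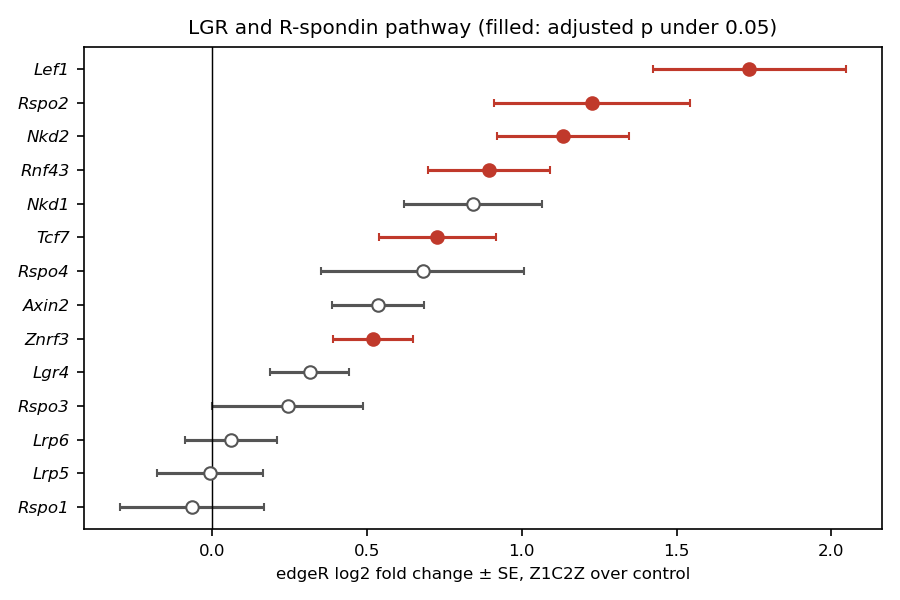
Log2 fold change of Z1C2Z over control with its SE (edgeR, n = 4 each) for the 14 genes of the LGR and R-spondin pathway, filled where the adjusted p was under 0.05. The 6 filled points, Lef1, Rspo2, Nkd2, Rnf43, Tcf7 and Znrf3, lie between 0.52 and 1.74, and the co-receptors Lrp5 and Lrp6 lie near 0.

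Krt15, Cd34 and Gas1 are the remaining markers, and they did not move together. Krt15, Entrez identifier 16665, is a keratin of bulge cells and of basal keratinocytes. Its level was 368, 126, 207 and 248 CPM in the control samples and 420.5, 423, 581 and 302 CPM in the Z1C2Z samples. Control-1 exceeded Z1C2Z-5, and apart from this overlap the groups were separate. The log2 fold change was 0.86 ± 0.31 (edgeR adjusted p = 0.108, means 237 ± 101 and 432 ± 114 CPM), close to that of Sox9 but with a larger SE. Krt15 passed without control-1 (log2 fold change 1.15, adjusted p = 0.0438) and by DESeq2 with all samples (adjusted p = 0.0281).

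Cd34, Entrez identifier 12490, is a sialomucin on bulge cells of the mouse follicle that endothelial cells, fibroblasts and blood progenitors also carry. It was at 330.3, 359, 368 and 395 CPM in control and at 299, 278, 268 and 303 CPM in Z1C2Z samples. The groups were separate by a narrow margin, between control-1 and Z1C2Z-5. Cd34 fell from 363 ± 26.5 to 287 ± 16.5 CPM, and its log2 fold change was −0.34 ± 0.09 (edgeR, adjusted p = 0.0487). The call was lost without control-3 (log2 fold change −0.33, adjusted p = 0.105) and without Z1C2Z-5 (−0.37, adjusted p = 0.0545). Gas1, Entrez identifier 14451, is a membrane-anchored hedgehog co-receptor that marks a subset of bulge cells and is also made by fibroblasts. With 159.8, 149, 169.8 and 143 CPM in control and 104, 105, 152 and 125 CPM in Z1C2Z samples, its groups overlapped through Z1C2Z-4 alone. Its log2 fold change was −0.35 ± 0.13 (edgeR adjusted p = 0.121, means 155 ± 11.7 and 122 ± 22.5 CPM).

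Cd34, Gas1 and Nfatc1 are also made by cells outside the follicle, so their values are given beside those of fibroblast, endothelial and leukocyte genes. The other members, among them those that rose, were not set beside these lists. Whether their RNA came from the follicle was not tested. All 8 genes of a fibroblast list had a lower level in Z1C2Z samples and 3 of them fell, against 3.85% of all genes tested. Their median log2 fold change was −0.58. The 3 were Dcn (−0.45, edgeR adjusted p = 0.0320), Lum (−0.67) and Mfap5 (−0.58), of which Lum and Mfap5 were named after their values had been seen. The collagen genes Col1a1 and Col3a1 had log2 fold changes of −0.57 (adjusted p = 0.111) and −0.53 (adjusted p = 0.119). The summed level of the list was 41860.3 to 60499 CPM in control and 32001 to 45647 CPM in Z1C2Z samples. Relative to the mean log2 CPM of this list in the same sample, a scale chosen after the values had been seen, the difference was 0.21 for Cd34 (exact permutation p = 0.0571), 0.17 for Gas1 (exact permutation p = 0.514) and −0.17 for Nfatc1 (exact permutation p = 0.200), with overlap of the groups for each. Such a subtraction moves the mean difference of every gene by the same amount, so the positive signs of Cd34 and Gas1 say only that both had smaller negative differences than the list, and nothing particular to these genes.

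Of 8 endothelial genes 7 were lower and none passed, with a median log2 fold change of −0.66 and a summed level of 333 to 886 CPM in control and 292 to 532 CPM in Z1C2Z samples. The most abundant of them had log2 fold changes of −0.91 for Cdh5 (adjusted p = 0.145), −0.80 for Pecam1 (adjusted p = 0.111) and −0.56 for Kdr (adjusted p = 0.296). Relative to their mean the difference was 0.16 for Cd34 (exact permutation p = 0.571), 0.12 for Gas1 (exact permutation p = 0.743) and −0.22 for Nfatc1 (exact permutation p = 0.457). The 7 leukocyte genes tested had a median log2 fold change of −0.37 and none passed, with a summed level of 1802 to 2624 CPM in control and 1122 to 1975 CPM in Z1C2Z samples. Relative to them Cd34 differed by 0.031 (exact permutation p = 0.800) and Nfatc1 by −0.34 (exact permutation p = 0.143). In these bulk samples, fewer cells of a type and less RNA per cell cannot be told apart.

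The 8 keratinocyte genes, among them Krt5 and Krt14, had a median log2 fold change of 0.19, none passed, and their summed level was 7775 to 10635 CPM in control and 9351 to 11095 CPM in Z1C2Z samples. Their mean log2 CPM was higher by 0.12 in Z1C2Z samples (exact permutation p = 0.314), and its subtraction lowered the difference of every gene by that amount while also changing the spread between samples. The differences then were 0.70 for Sox9, 0.66 for Lgr5, 0.42 for Nfib, −0.46 for Cd34 and −0.83 for Nfatc1, each without overlap (exact permutation p = 0.0286 for each). On this scale Gas1 was also separate between the groups, with a difference of −0.49 (exact permutation p = 0.0286). Tbx1 differed by 0.84 and Krt15 by 0.81, with overlap in both (exact permutation p = 0.0571 for each), and Lrig1 by 0.11 (exact permutation p = 0.429).

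**Figure D3:**
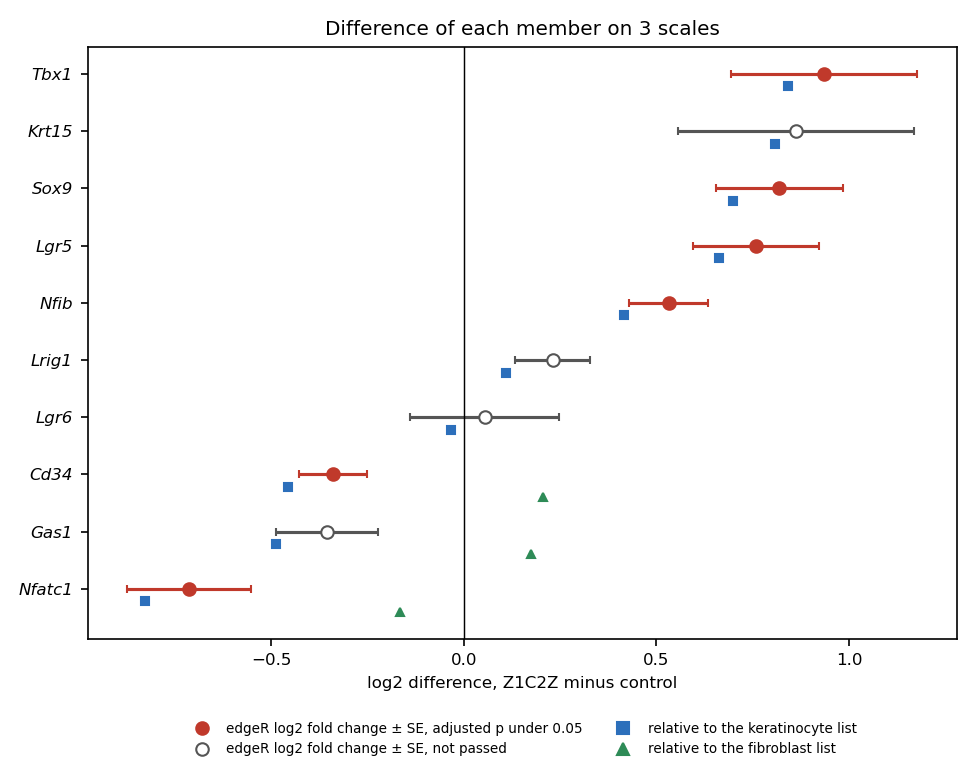
Log2 difference of Z1C2Z minus control for each of the 10 genes (n = 4 each), as edgeR log2 fold change with its SE (circles, filled where the adjusted p was under 0.05), relative to the mean of 8 keratinocyte genes (squares) and, for Cd34, Gas1 and Nfatc1, relative to the mean of 8 fibroblast genes (triangles). Subtracting a list moves the difference in mean log2 CPM of all genes by the same amount. The circles come from the edgeR model instead, so their offset from the squares varies by gene (0.86 and 0.81 for Krt15, −0.35 and −0.49 for Gas1). By such a shift the triangles of Cd34 and Gas1 lie above 0 at 0.21 and 0.17.

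Genes of the hair matrix and shaft, the differentiated progeny of the follicle, had larger log2 fold changes than the stem cell genes. All 14 genes of the list rose, with a median log2 fold change of 2.86, among them the hair keratins Krt85 (2.70, edgeR adjusted p = 0.0319) and Krt33a (4.36, adjusted p = 0.0420). Over all genes tested 4.28% rose. This list of shaft genes had been chosen with earlier results of these data known, so its count is no independent evidence of its direction. The summed level was 137, 237, 446 and 133 CPM in the control samples and 1407, 3690, 3538 and 529 CPM in the Z1C2Z samples. The Z1C2Z samples were thus far apart for shaft genes, with Z1C2Z-5 closest to control-3. Lgr5 did not follow this spread: it was 1.91, 1.54, 1.78 and 1.54 times the control mean in Z1C2Z-1, -2, -4 and -5, whereas the shaft sum was 5.90, 15.5, 14.8 and 2.22 times. Sox9 was 1.49, 1.64, 2.25 and 1.67 times and Tbx1 1.84, 1.96, 2.43 and 1.42 times the control mean. Nfib was 1.34, 1.43, 1.62 and 1.39 times. Tbx1 was thus lowest in Z1C2Z-5, as the shaft sum was, and Sox9, Tbx1 and Nfib were highest in Z1C2Z-4. Whether these genes vary with the shaft genes was not tested. Among controls, control-1 had the most RNA of its group for 7 of the 10 stem cell genes, with a shaft sum of 0.576 times the control mean. The part of the shaft genes in the results was examined only through a fit with their score as covariate, in which none of the 10 genes and 1 gene of the table passed. That score went with the treatment, so the fit cannot separate score and treatment. In that fit the log2 fold change was 0.92 for Lgr5, 0.82 for Sox9, 0.48 for Nfib, 1.01 for Krt15 and −0.27 for Cd34, while those of Tbx1 and Nfatc1 were 0.33 and −0.32, less by over 1.5 times than without the covariate.

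**Figure D4:**
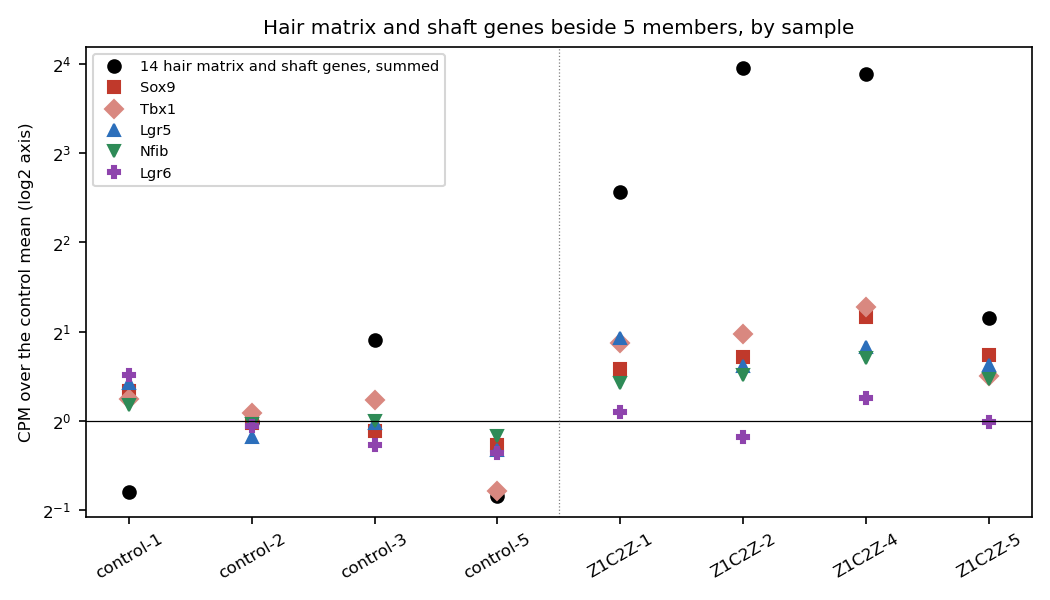
CPM over the control mean (log2 axis) in each of the 8 samples for the summed level of 14 hair matrix and shaft genes (black circles) and for Sox9, Tbx1, Lgr5, Nfib and Lgr6. The shaft sum spans 2.22 to 15.5 among the Z1C2Z samples, while Lgr5 stays between 1.54 and 1.91 and Lgr6 between 0.886 and 1.20. Tbx1 spans 1.42 to 2.43 and, like the shaft sum, is lowest in Z1C2Z-5.

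A further list of 22 genes was drawn up for follicle stem and progenitor cells, but it also held genes of other follicle layers, such as Krt75. Of these 22 genes, 4 rose, 1 fell and 17 did not pass, with a median log2 fold change of 0.33. Over all genes tested 4.28% rose and 3.85% fell, and this list too was chosen with earlier results of these data known. Foxc1, a factor that returns active bulge cells to rest, rose from 35.1 ± 8.44 to 69.8 ± 13.2 CPM (log2 fold change 0.99 ± 0.20, edgeR adjusted p = 0.0303). Krt75, the keratin of the companion layer, rose from 56.5 ± 22.1 to 206 ± 74.6 CPM (1.87 ± 0.34, adjusted p = 0.0300). P-cadherin, encoded by Cdh3 and abundant in hair germ and matrix, rose from 46.1 ± 7.54 to 71.2 ± 3.81 CPM (adjusted p = 0.0303), and the vitamin D receptor gene Vdr, needed for hair cycling, rose from 123 ± 4.43 to 180.3 ± 22.1 CPM (adjusted p = 0.0299). Runx1, which promotes the activation of follicle stem cells and is also a blood cell factor, fell from 108 ± 6.96 to 62.2 ± 16.5 CPM (log2 fold change −0.79, adjusted p = 0.0356). The most abundant genes of the list, the keratins Krt17, Krt6a and Krt79, had log2 fold changes of 0.28 (adjusted p = 0.312), −0.73 (adjusted p = 0.273) and 0.39 (adjusted p = 0.241).

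Of 17 genes that act with Lrig1, Gas1 or Nfatc1, 1 rose and 16 did not pass, with a median log2 fold change of −0.013. This count was near the share over all genes tested, of which 4.28% rose and 3.85% fell. Erbb2, a receptor of the EGF family that LRIG1 restrains, rose from 48.6 ± 3.43 to 64.3 ± 4.60 CPM (log2 fold change 0.40, edgeR adjusted p = 0.0341). None of the hedgehog receptors and effectors of the list passed.

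A rough comparison of genes with each other was made in CPM per kilobase, with the length taken over all annotated exons of a gene. The genome build and counting program were not given, so these lengths may differ from those of the transcripts present. On this scale Krt15 was the highest of the 10 genes at 134 ± 57.0 in control and 244 ± 64.8 in Z1C2Z samples. Gas1 and Cd34 followed with 52.5 ± 3.96 and 49.8 ± 3.63 in control and 41.1 ± 7.61 and 39.4 ± 2.26 in Z1C2Z samples, and the ranges of this pair overlapped in both groups. In control samples Lrig1 (14.8 ± 1.05) and Nfib (14.7 ± 1.49) were alike in level, and Sox9 (10.8 ± 2.01) and Nfatc1 (9.64 ± 1.86) were near each other. In Z1C2Z samples the order in this middle group was Nfib (21.3 ± 1.83), Sox9 (19.0 ± 3.58), Lrig1 (17.4 ± 1.77) and Nfatc1 (5.88 ± 0.996). The lowest levels were those of Lgr5, Tbx1 and Lgr6, with 3.23 ± 0.780, 2.93 ± 0.837 and 2.60 ± 0.768 in control samples. In Z1C2Z samples Lgr5 (5.46 ± 0.592) and Tbx1 (5.60 ± 1.22) lay above Lgr6 (2.70 ± 0.343).

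The remaining cell type lists held few genes that passed. The library totals were 28856790 to 38974888 counts. Of 8 skeletal muscle genes 1 fell (Acta1, log2 fold change −0.86, edgeR adjusted p = 0.0303), against 3.85% of all genes tested. For 3 of the 8 every Z1C2Z sample was below every control sample, against 8.82% of all genes tested. The median of the list was −0.50, with a summed level of 2778 to 5621 CPM in control and 2480 to 2764 CPM in Z1C2Z samples. No gene passed among the sebaceous gland (8), Schwann cell (5), cartilage (2 tested of 5) or cell division (8) lists, whose median log2 fold changes were −0.00059, 0.52, −0.32 and 0.18. Their summed levels ran from 2317 to 3412, 50.2 to 96.3, 8.90 to 14.6 and 587 to 751 CPM in control, and from 2309 to 3167, 74.2 to 105, 6.80 to 9.23 and 738 to 843 CPM in Z1C2Z samples.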

How the data were processed

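The authors sequenced rRNA-depleted RNA of 8 wound skin samples and deposited raw counts of reads per gene, without normalization, for 18540 genes. Aligner, genome build, counting program and strand setting were not given in the sources used here, so reads shared between overlapping genes could not be reassigned. Samples were grouped by title, and 0 columns of sample values were left unused. Genes were kept by filterByExpr (15147), scaled by TMM and tested in R 4.3.3 with edgeR 4.0.16 (quasi-likelihood test, Benjamini-Hochberg adjustment over all genes tested, no covariate). CPM are counts scaled to equal library size. Log2 CPM used a prior count of 2. SEs were derived from the F statistic. Exact two-sided permutation tests ran over 70 arrangements. Exon lengths came from GENCODE and promoter windows from RefSeq. The steps were checked on simulated counts with log2 changes of 2, where 180 of 200 changed genes were recovered and 4 unchanged genes were called. Those changes were larger than those of the 10 genes, so the check does not bear on how well changes of their size are found. The genes and lists were chosen with earlier results of these data known. All 10 genes are named. Of the pathway lists, genes that passed and the 3 most abundant are named, and of the cell type lists up to 3 of the most abundant, with others marked as chosen after their values were seen. Alternatives were DESeq2 1.42.0, RLE scaling, other filters, a log2 fold change over 1, an unadjusted p, a block on sample number, covariates for muscle and for hair matrix and shaft genes, cell type references and each sample left out in turn.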

Additional observations from a re-analysis of the deposited data

Results flagged for a closer look

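The Tbx1 level of control-5 stood apart from the rest of its group. It was 5.97 CPM, against 10.9 to 12.2 CPM in the other 3 control samples, and the gap to its nearest neighbour made up 0.844 of the range of the group in log2 CPM. It was the only value past Dixon's 95% critical value in the 20 groups of 4 samples examined for the 10 genes, where chance gives about 1 in 20. The rise of Tbx1 was not called without this sample, as no gene of the table was.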

How the results depend on the processing

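Of the 4 genes that rose and the 2 that fell, 4 and 2 also passed with RLE scaling, and 5 and 2 with DESeq2, which added Krt15. Without a low-count filter, or with at least 10 counts in every sample, 1 gene fell in each. A log2 fold change over 1, the hair matrix and shaft score as covariate and the block on sample number left 0 and 0 genes. With the muscle score 1 rose (Lgr5, log2 fold change 1.02) and 0 fell. The lost calls did not all go with smaller log2 fold changes. With the muscle score those of Sox9, Nfib, Tbx1, Nfatc1 and Cd34 were larger in size (1.02, 0.62, 0.98, −0.80 and −0.41), with edgeR adjusted p between 0.0615 and 0.115. With the block Lgr5, Tbx1 and Nfatc1 had 0.76, 0.93 and −0.70 (edgeR adjusted p 0.0528, 0.0506 and 0.0670), and Sox9, Nfib and Cd34 0.67, 0.48 and −0.30. The numbers of control-3 and Z1C2Z-4 had no partner in the other group, so these samples did not bear on the difference in the blocked fit. With the hair score Tbx1 and Nfatc1 moved to 0.33 and −0.32, whereas Lgr5 and Sox9 had 0.92 and 0.82. That score went with the treatment, so the fit cannot separate them. With 1 sample left out in turn, 0 to 4 rose and 0 to 2 fell. Over all genes the calls numbered 1231, and 2756 by DESeq2, 554 with the block, 92 with the muscle score and 1 with the hair score. They were 0 without Z1C2Z-4, Z1C2Z-2, Z1C2Z-1 or control-5, where edgeR's unadjusted p was under 0.05 for 3100, 3137, 4208 and 3223 genes, and at most 1745 in the other fits with 1 sample left out. The direction of Lgr6 turned with the block (−0.062), relative to keratinocytes (−0.033) and with samples left out (−0.041 to 0.27). Subtracting a list whose level was lower in Z1C2Z samples moved all genes up alike, and by that shift the sign turned for Cd34 relative to fibroblast (0.21), endothelial (0.16) and leukocyte genes (0.031) and for Gas1 relative to the first 2 (0.17 and 0.12). Where no other value bears on it, the cause was not tested. Samples with a shared number had correlations of −0.101, −0.0623 and 0.323 for numbers 1, 2 and 5, and only the samples numbered 5 correlated best with each other. Without a reference for these values, they cannot settle whether the numbers pair the samples. With 4 samples a group the smallest exact p was 0.0286.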
